A study of Mus musculus with 7 samples.

Results

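The genes described here encode the parts of 3 junctions by which epithelial cells hold to each other: tight junctions, desmosomes and gap junctions. There are 39 of them, in 8 classes: 14 claudins, 4 other tight junction membrane proteins, 3 tight junction plaque proteins, 3 polarity proteins, 2 desmosomal cadherins, 8 desmosomal plaque proteins, 2 catenins and 3 connexins. They were found by the gene name of each probe in the scanner files, or by the present symbol of the probe's accession. All 39 were on the array, with 70 probes, among 27583 genes and unnamed probes in the series. Where a gene had several probes (17 members), the one with the highest mean level was used, and the others are given where they disagreed.

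Tight junctions seal the space between neighbouring epithelial cells. Claudins and occludin form the strands, and plaque proteins such as ZO-1 (Tjp1), ZO-3 (Tjp3) and cingulin (Cgn) tie them to actin, while polarity proteins set where along the cell side they form. In the liver they close off the bile canaliculus between hepatocytes. Desmosomes anchor keratin filaments through the cadherins desmoglein and desmocollin and the plaque proteins desmoplakin, plakoglobin, plakophilins and plakins. Gap junctions are channels of connexins, with Cx32 (Gjb1) and Cx26 (Gjb2) the main ones of hepatocytes and Cx43 (Gja1) that of fibroblasts.

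RNA was measured on 7 Agilent arrays of 1 colour, all from mouse cells of C57BL/6 background. The MEF arrays (MEF 1 to MEF 3) hold embryonic fibroblasts that were prepared individually from embryos at 13.5 days post coitum. The 3 iHep arrays hold hepatocyte-like cells induced from MEF, 1 array for each of 3 types, labelled 4α1, 4α2 and 4α3 and called types 1, 2 and 3 here. The paper on these cells describes Hnf4a delivered with Foxa1, Foxa2 or Foxa3, but the labels do not say what their last digit stands for. The last array holds hepatocytes obtained from adult livers, with neither age nor number of animals in the labels. The arrays of MEF 2 and MEF 3 lay closer together than repeated spots within an array and were averaged, so that n was 2 for MEF, 3 for iHep and 1 for hepatocyte. The spread of the iHep group is thus the spread between its types, the p-values cover no other spread than that between these samples, and the hepatocyte, with 1 array, was given the spread of MEF and iHep.

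A level is log2 of the processed signal relative to the 75th percentile of its array, so that 0 is that percentile and 1 unit is a doubling. Levels are read for each gene across arrays, not between genes. A probe that Feature Extraction did not mark as well above background has only an upper bound, and a difference against a group with no such mark is then given as "at least N-fold". Where some of the MEF arrays lack the mark, the fold is given with those arrays raised to the lowest level well above background, and the fitted log2 difference, which rests on their measured values, stands beside it. From 60.2% to 68.7% of all probes were well above background on each array. MEF 1 and the iHep arrays shared slide 1, MEF 2 and MEF 3 a second slide, and the hepatocyte array lay alone on another, so slide and group cannot be told apart for the hepatocyte. In these bulk samples fewer cells of a type and less RNA per cell cannot be told apart. As a check of the labels, 9 hepatocyte markers were set side by side: 2 were well above background on each MEF array, 7 or 8 in iHep and 9 in the hepatocyte, with a summed signal of 0.262 to 0.295, 49.6 to 372 and 2752 in units of the 75th percentile.

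Promoter sequences are shown because many members were higher together in iHep, and because the E-box letters CAGGTG are those bound by the Snai and Zeb repressors of epithelial genes. Windows from 250 bases before a transcript start to 50 after it (RefSeq, GRCm38.p6) were available for 29 of the 39 members, 47 windows in all. Only the 250 bases before the start were searched, not the 50 after it. There CAGGTG, read on both strands, stood in 15 of the 47 windows (31.9%) and in 17.2% of the 32851 windows of all genes. Several windows of a gene can overlap, and no test was made of this share. The other letters, searched in the same 250 bases on both strands, were found for no member. They were AACCGGTT (grainyhead-like factors, in 0.116% of all windows), TGTTTAC (forkhead factors, 3.17%) and CAAAGTCCA (Hnf4, 0.384%). The 250 bases before the start are printed for Cldn4 (chr5:134946935-134947184, minus strand), F11r (chr1:171437311-171437560, plus), Tjp3 (chr10:81291582-81291831, minus), Crb3 (chr17:57061951-57062200, plus), Gjb2 (chr14:57104703-57104952, minus) and Gja1 (chr10:56377050-56377299, plus). They are 1 member each of 5 classes, with Gja1 as the member that fell, and were chosen after the levels were known. Each runs 5′ to 3′ on the strand of its gene and ends at the base before the start, with CAGGTG or its complement CACCTG in capitals.
Cldn4: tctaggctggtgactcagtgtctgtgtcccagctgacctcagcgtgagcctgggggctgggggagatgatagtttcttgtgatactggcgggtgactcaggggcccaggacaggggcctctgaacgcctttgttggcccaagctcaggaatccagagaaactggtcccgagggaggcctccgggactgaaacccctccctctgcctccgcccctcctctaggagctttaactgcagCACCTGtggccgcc
F11r: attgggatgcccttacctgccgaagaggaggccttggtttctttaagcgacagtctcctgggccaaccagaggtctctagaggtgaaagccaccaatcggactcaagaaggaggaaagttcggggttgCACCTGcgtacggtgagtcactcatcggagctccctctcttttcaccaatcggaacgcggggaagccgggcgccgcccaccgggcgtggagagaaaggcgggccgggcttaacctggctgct
Tjp3: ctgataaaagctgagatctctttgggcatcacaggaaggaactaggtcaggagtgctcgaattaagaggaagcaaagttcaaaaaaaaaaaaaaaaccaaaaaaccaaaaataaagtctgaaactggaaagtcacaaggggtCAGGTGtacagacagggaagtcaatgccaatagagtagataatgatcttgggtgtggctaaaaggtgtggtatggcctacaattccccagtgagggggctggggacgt
Crb3: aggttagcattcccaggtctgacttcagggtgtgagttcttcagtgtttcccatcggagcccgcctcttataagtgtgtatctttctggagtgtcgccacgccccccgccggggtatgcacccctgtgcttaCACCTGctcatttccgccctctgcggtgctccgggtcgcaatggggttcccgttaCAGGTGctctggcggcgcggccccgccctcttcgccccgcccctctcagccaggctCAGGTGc
Gjb2: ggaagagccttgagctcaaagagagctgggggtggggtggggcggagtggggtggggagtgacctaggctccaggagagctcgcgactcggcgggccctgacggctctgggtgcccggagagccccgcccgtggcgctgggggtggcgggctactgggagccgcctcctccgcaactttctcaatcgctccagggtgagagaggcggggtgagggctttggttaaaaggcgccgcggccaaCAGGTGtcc
Gja1: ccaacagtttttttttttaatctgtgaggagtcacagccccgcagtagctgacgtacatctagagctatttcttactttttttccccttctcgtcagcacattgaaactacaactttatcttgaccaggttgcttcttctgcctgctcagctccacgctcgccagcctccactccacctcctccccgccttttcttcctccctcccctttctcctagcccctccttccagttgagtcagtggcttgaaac
Crb3 holds the letters at 3 places, Cldn4, F11r, Tjp3 and Gjb2 at 1, and Gja1 at none. The printed set is not typical in this, as 16 of the 29 members with windows hold no such letters. In Cldn4 they lie 14 to 9 bases before the start and in Gjb2 9 to 4 bases before it. Of the 12 tested members with the letters in any window 7 were higher in iHep than in MEF, and of the 15 without them 7 were higher and 1 was lower.

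The first comparison asks which junction genes differ between iHep and the fibroblasts they came from. Of the 39 members 36 were tested, because their probe passed that mark on each array of MEF, of iHep or of the hepatocyte. In iHep 21 of the 36 were higher than in MEF and 1, Gja1, was lower (limma, Benjamini-Hochberg adjusted over 19135 genes, adjusted p under 0.05). Of all genes tested 10.0% were called higher and 13.2% lower. The median difference of the 36 was 3.19 on the log2 scale, and that of all genes was -0.043. Of the 36, 13 were not well above background on all MEF arrays and entered the test through iHep or the hepatocyte, where they are high, so that the count and median describe the members without being a test of them. The 21 members well above background on all 7 arrays gave 9 calls higher and 0 lower in iHep. Each of the 21 called higher had all 3 iHep arrays above all 3 MEF arrays. The share of all called genes with such a gap was not counted, so this describes the calls and adds no support to them.

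**Figure D1:**
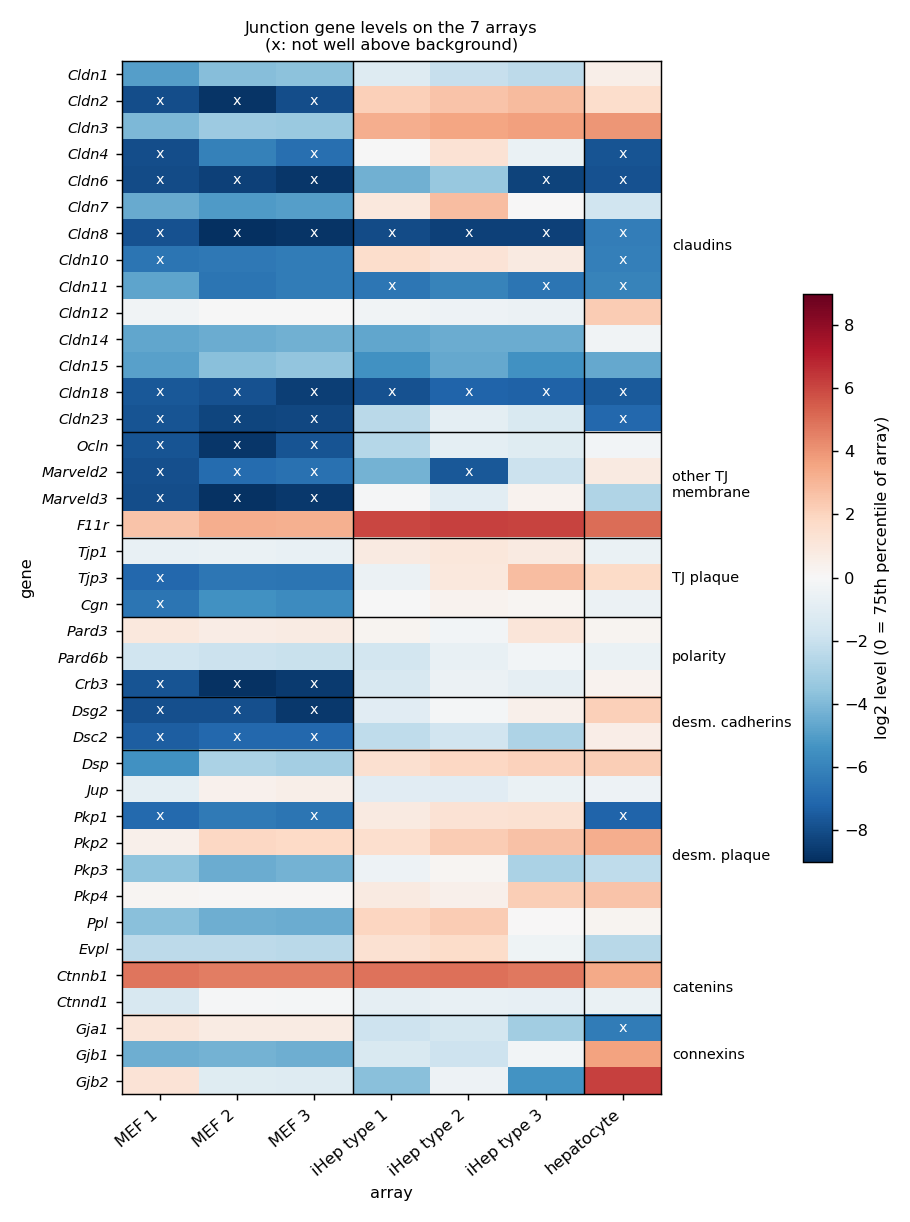
Levels of the 39 junction genes (rows, by class; TJ, tight junction; desm., desmosomal) on the 7 arrays (columns), as log2 signal relative to the 75th percentile of the array, with red above and blue below it and an x for signals not well above background. Colours are to be read along a row: in 21 rows, from deep blue to paler or red in most of them, all 3 iHep types stand above all MEF arrays with a call, Gja1 runs the other way, and Cldn4, Cldn10, Cldn23 and Pkp1 are among the rows with an x in the hepatocyte.

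With slide as a block, iHep is set against MEF 1 alone within slide 1. Then 15 of the 21 stayed called, and Cldn1, Cldn7, Tjp3, Ppl, Evpl, Gjb1 and the fall of Gja1 missed the threshold, with log2 differences of 3.07, 5.78, 8.10, 5.18, 3.25, 3.26 and -3.29 and adjusted p-values from 0.0539 to 0.132 (limma). Leaving out MEF 1 removed these calls too, with each difference still in the same direction. Leaving out MEF 2 and 3 again sets iHep against MEF 1 alone. It gave the same values as the slide block and is no separate check. Evpl and Cldn1 also missed the threshold without type 1 and without type 2.

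Claudins, the strand proteins that set which ions and molecules pass, gave 7 of 11 tested members higher in iHep than in MEF and 0 lower. The largest difference was that of Cldn2, a pore-forming claudin that lets small cations and water pass (probe at chrX:135157069-135157128, build mm8 of the array's annotation). Its levels were -7.99, -8.81 and -8.00 on the MEF arrays, 2.16, 2.59 and 2.85 in iHep types 1 to 3 and 1.57 in the hepatocyte. No MEF array was above background, and all iHep types exceeded the hepatocyte. Cldn2 was at least 470.7-fold higher in iHep than in MEF (10.73 ± 0.29, SE; adjusted p = 0.000336) and at least 241.8-fold higher in the hepatocyte, while iHep and hepatocyte did not differ past the threshold (0.96, 95% interval 0.03 to 1.89, adjusted p = 0.0793, and 0.0355 to 0.0416 after normexp, after quantile normalization and in the deposited table).

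Cldn3, a sealing claudin of many epithelia, had levels of -4.02, -3.29 and -3.34 on the MEF arrays, 3.30, 3.58 and 3.72 in iHep and 3.99 in the hepatocyte. The iHep types and the hepatocyte lay close together and far above MEF. The difference was 7.20 ± 0.29 for iHep against MEF (147.2-fold, adjusted p = 0.000578), and for iHep against the hepatocyte it was -0.46 with a 95% interval from -1.40 to 0.48. Cldn1, which is needed for the seal of many epithelia and is abundant in hepatocytes, ran from -4.94 to -3.71 on the MEF arrays, from -2.34 to -1.17 in iHep and to 0.54 in the hepatocyte. Its 3 groups did not overlap, with iHep between the others. Cldn1 was 5.58-fold higher in iHep than in MEF (adjusted p = 0.0291) and 5.29-fold lower than in the hepatocyte (adjusted p = 0.0335), a difference that a second probe did not call (-2.68, adjusted p = 0.0757) and that missed the threshold without type 2 or type 3.

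Of the other claudins called higher in iHep than in MEF, Cldn4, Cldn10 and Cldn23 were not above background in the hepatocyte. Cldn4, which tightens the barrier to sodium, had levels of -7.97, -6.10 and -6.81 on the MEF arrays, -0.02, 1.28 and -0.60 in iHep and -7.75 in the hepatocyte. It was well above background on 1 MEF array and not on the hepatocyte array, and was 81.96-fold higher in iHep than in MEF with the other MEF arrays at the lowest level above background (fitted difference 7.43 ± 0.73, adjusted p = 0.00387) and at least 64.47-fold higher than in the hepatocyte. Cldn10, a claudin with anion- and cation-selective forms, had levels of -6.55, -6.44 and -6.26 in MEF, 1.60, 1.22 and 0.81 in iHep and -6.13 in the hepatocyte. The 3 iHep types stood apart from all other arrays, 156.9-fold above MEF with MEF 1 at that lowest level (fitted difference 7.66 ± 0.29, adjusted p = 0.000494) and at least 128.2-fold above the hepatocyte. Cldn23 was at least 27.28-fold higher in iHep than in MEF and at least 18.6-fold higher than in the hepatocyte, with levels of -2.43, -0.91 and -1.40 in iHep and no array above background in either other group. Cldn7 had levels of -4.54, -5.13 and -4.98 in MEF, 0.95, 2.76 and 0.04 in iHep and -1.80 in the hepatocyte, so that every iHep type lay above the hepatocyte. It was 65.86-fold higher in iHep than in MEF (adjusted p = 0.00937), and neither its difference from the hepatocyte (3.04, adjusted p = 0.0632) nor that between hepatocyte and MEF (7.98-fold, adjusted p = 0.0725) passed the threshold, while both did with the 3 MEF arrays as separate samples (adjusted p = 0.0387 and 0.0339) and without type 2 or type 3.

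Cldn12 and Cldn14 showed the opposite order. Cldn14, a claudin known from the inner ear, kidney and liver, had levels of -4.69, -4.48 and -4.34 in MEF, -4.67, -4.50 and -4.46 in iHep and -0.31 in the hepatocyte. The MEF and iHep arrays overlapped, and the hepatocyte was 18.93-fold above MEF (adjusted p = 0.000422) and 18.82-fold above iHep (adjusted p = 0.000393). Cldn12 ran from -0.31 to -0.01 in MEF and from -0.53 to -0.32 in iHep, with 2.27 in the hepatocyte. It was 5.38-fold higher in the hepatocyte than in MEF (adjusted p = 0.00176). Cldn11, a claudin of myelin and of Sertoli cells, and Cldn15, known from the intestine, gave no call in any comparison, with iHep against MEF differences of -0.79 and -0.91. Cldn8 and Cldn18 were not well above background on any array. Cldn6, an embryonic claudin, was above background in iHep types 1 and 2 alone, at -4.35 and -3.41, and was not tested.

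The other membrane proteins of tight junctions included 3 of 4 that were higher in iHep than in MEF. Occludin (Ocln), the first strand protein described (probe at chr13:101598416-101598475, mm8), had levels of -7.80, -8.73 and -7.76 in MEF, -2.56, -0.87 and -1.11 in iHep and -0.27 in the hepatocyte. No MEF array was above background and every iHep type was below the hepatocyte. Ocln was at least 28.49-fold higher in iHep than in MEF (6.51 ± 0.57, adjusted p = 0.00292) and at least 67.57-fold higher in the hepatocyte. Marveld3, a relative of occludin, reached -0.10, -0.93 and 0.28 in iHep against -2.71 in the hepatocyte and background in MEF. It was at least 68.49-fold higher in iHep than in MEF and 5.52-fold higher than in the hepatocyte (adjusted p = 0.0215, and 0.0569 without type 1). F11r, the adhesion protein JAM-A, was well above background everywhere, at 2.58, 3.27 and 3.23 in MEF, 6.03, 6.15 and 6.10 in iHep and 5.06 in the hepatocyte. Its groups did not overlap, and it was 9.05-fold higher in iHep than in MEF (adjusted p = 0.00239). The 2.05-fold difference from the hepatocyte (adjusted p = 0.0484) missed the threshold when any 1 iHep type was left out (adjusted p = 0.0759 to 0.106).

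Tricellulin (Marveld2), which seals the corners where 3 cells meet, was the member of this class without a call in iHep against MEF (2.79 ± 1.69, adjusted p = 0.289). Its levels were -4.26, -7.63 and -1.93 in types 1, 2 and 3 and 0.82 in the hepatocyte, with no MEF array above background. Type 2 was not above background either, and the highest type, type 3, was still below the hepatocyte. Without type 2 the difference was 4.30 (adjusted p = 0.0491). The second Marveld2 probe had the same order of types, at -6.73, -8.45 and -4.09. For iHep against the hepatocyte that probe was called (-5.57, adjusted p = 0.0384), and the brightest was not (-5.43, adjusted p = 0.0891). In the hepatocyte Marveld2 was at least 141.8-fold above MEF (adjusted p = 0.0317, and 0.0574 to 0.114 without type 1 or without a MEF sample).

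All 3 plaque proteins were higher in iHep than in MEF. Tjp1 (ZO-1), which fibroblasts also make, had levels of -0.64, -0.61 and -0.67 in MEF, 0.80, 0.99 and 0.82 in iHep and -0.58 in the hepatocyte. The hepatocyte fell next to the fibroblasts and the iHep types above both, by 2.85-fold over MEF (adjusted p = 0.00593) and by 2.74-fold over the hepatocyte (adjusted p = 0.00567). A second, dimmer probe gave 1.27 for iHep against MEF (adjusted p = 0.0147), 0.35 for iHep against the hepatocyte (adjusted p = 0.316) and 0.91 for hepatocyte against MEF (adjusted p = 0.0441). Tjp3 (ZO-3), a plaque protein known from epithelia, had levels of -7.04, -6.50 and -6.59 in MEF, -0.54, 0.96 and 2.77 in iHep and 1.74 in the hepatocyte. Types 1 and 2 lay below the hepatocyte and type 3 above it. Tjp3, not above background in MEF 1, was 151.9-fold higher in iHep than in MEF with that array at the lowest level above background (fitted difference 7.86 ± 0.98, adjusted p = 0.00724). Cingulin (Cgn), an actin and myosin binder of the plaque, was within -0.05 to 0.34 in iHep, at -0.51 in the hepatocyte and at or below -5.43 on the MEF arrays, which is 57.02-fold higher in iHep than in MEF with MEF 1 at the lowest level above background (adjusted p = 0.00106).

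**Figure D2:**
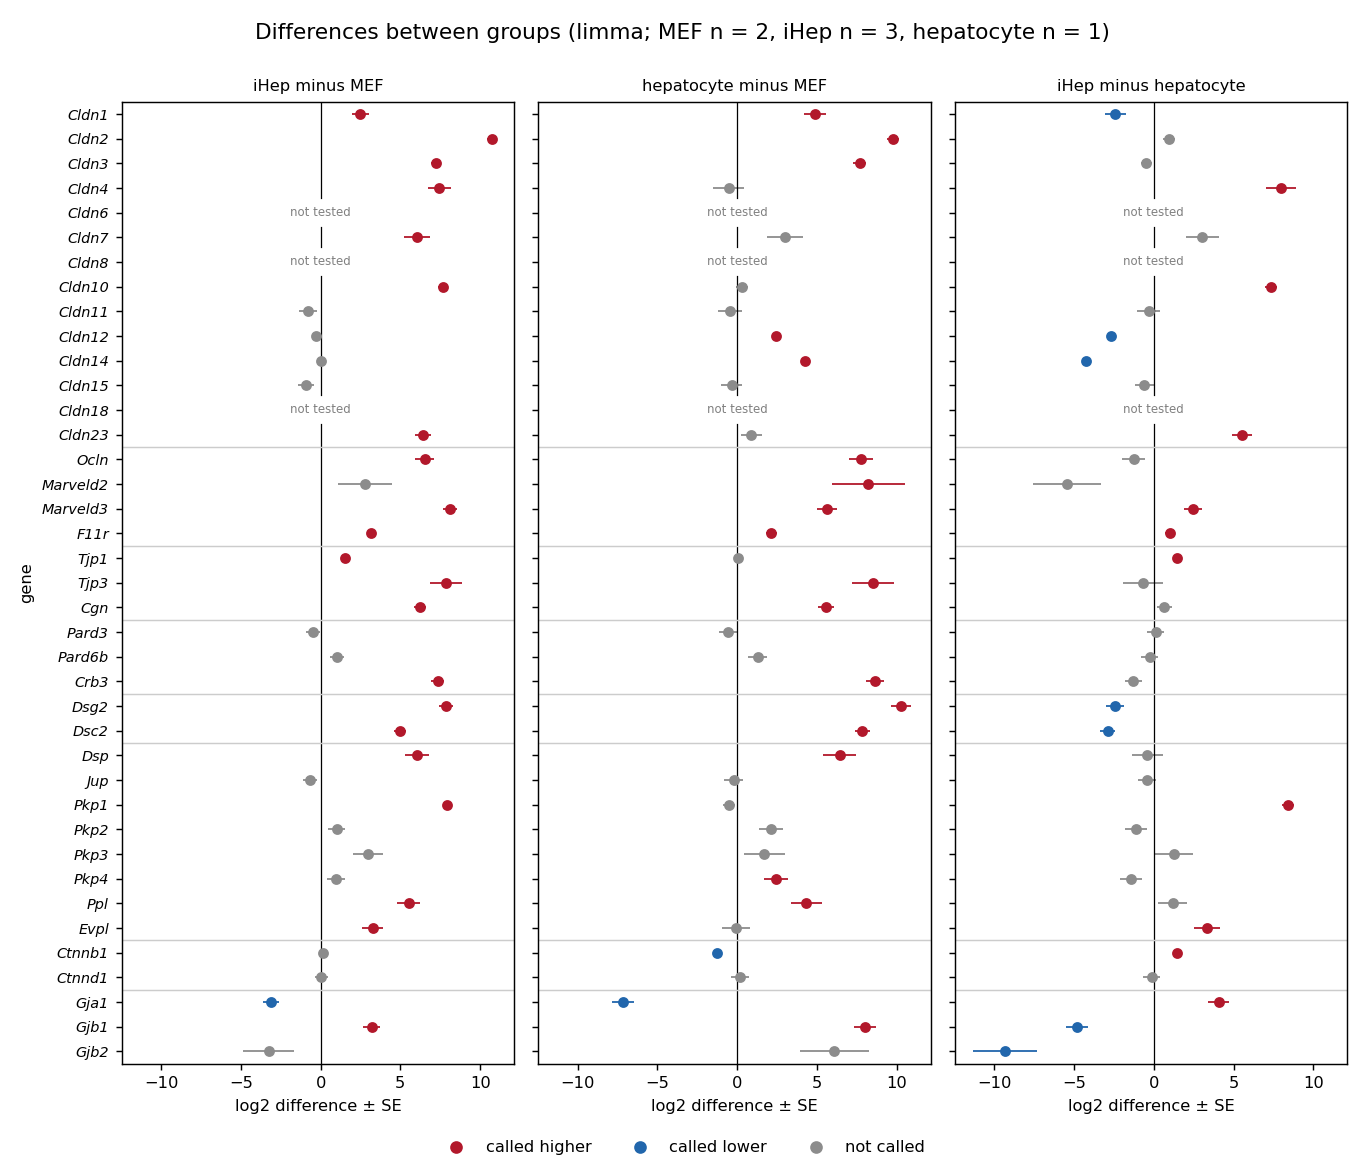
Fitted log2 differences (points) with their standard errors (lines) for each junction gene in iHep minus MEF, hepatocyte minus MEF and iHep minus hepatocyte, with red for genes called higher, blue for lower and grey for no call (limma; MEF n = 2, iHep n = 3, hepatocyte n = 1). In the left panel 21 points are red and Gja1 is blue, and in the right panel 10 are red and 7 are blue. Differences against a group not well above background depend on the background level and are no bounds.

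Among the polarity proteins, Crb3, the Crumbs protein of the apical membrane (probe at chr17:56750988-56751047, mm8), was the 1 of 3 called. Its levels were -7.80, -8.89 and -8.64 in MEF, -1.47, -0.55 and -0.82 in iHep and 0.34 in the hepatocyte. MEF were at background, and the hepatocyte was above each iHep type. Crb3 was at least 42.17-fold higher in iHep than in MEF (adjusted p = 0.00106) and at least 103.3-fold higher in the hepatocyte (adjusted p = 0.000493), with -1.29 between iHep and hepatocyte (adjusted p = 0.101, and 0.0341 after normexp background correction). Pard6b, a partner of atypical protein kinase C, was not called (1.01 in iHep against MEF, adjusted p = 0.161), though 1 of its 3 probes, well above background on 1 MEF array, was (adjusted p = 0.0297). That probe was also called for hepatocyte against MEF (2.54, adjusted p = 0.0233), and the brightest was not (1.28, adjusted p = 0.122).

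Pard3, the scaffold of the same polarity complex, gave different answers by probe. Its brightest probe (chr8:130497775-130497834, mm8) gave no call in any comparison, at 0.94, 0.70 and 0.75 in MEF, 0.22, -0.25 and 1.09 in iHep and 0.24 in the hepatocyte. The probe at chr8:130318920-130318979 had -2.23, -2.30 and -2.34 in MEF, -1.35, -0.78 and -1.47 in iHep and 3.04 in the hepatocyte. In that probe the 3 groups were ordered MEF, iHep and hepatocyte without overlap, with 5.32 ± 0.36 for hepatocyte against MEF (adjusted p = 0.000498) and 1.07 ± 0.27 for iHep against MEF (adjusted p = 0.0440; each probe tested on its own). Of the 6 probes, the 4 with the lowest coordinates were called higher in the hepatocyte than in MEF, by 1.28, 1.94 and 5.32 in the 3 above background on all arrays, and the 2 with the highest coordinates were not, at -0.64 and -0.59. The mean of the 6 probes was called in the hepatocyte (1.74 against MEF, adjusted p = 0.00358). Which transcripts each probe detects was not tested.

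**Figure D3:**
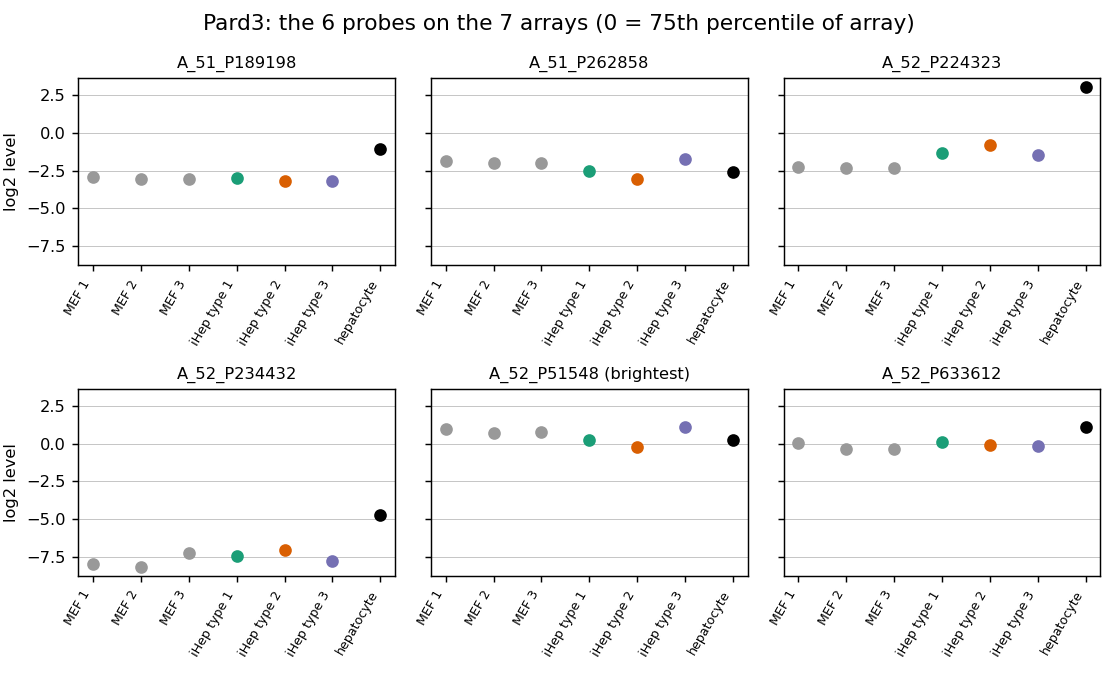
Levels of the 6 Pard3 probes (1 panel each, named by probe) on the 7 arrays, as log2 signal relative to the 75th percentile of the array, with MEF in grey, iHep types in colour and the hepatocyte in black. The hepatocyte point stands above all others in 4 panels, up to 3.04 in A_52_P224323, and within the range of the others in the panel of the brightest probe, A_52_P51548.

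Both desmosomal cadherins rose from background in MEF and were higher still in the hepatocyte. Desmoglein 2 (Dsg2) had levels of -7.93, -7.88 and -8.70 in MEF, -0.99, -0.19 and 0.45 in iHep and 2.17 in the hepatocyte. Desmocollin 2 (Dsc2), its partner, had levels of -7.42, -7.06 and -7.06 in MEF, -2.29, -1.72 and -2.79 in iHep and 0.61 in the hepatocyte. In both genes no MEF array was above background and the hepatocyte exceeded every iHep type. Dsg2 was at least 68.63-fold higher in iHep than in MEF (adjusted p = 0.00106) and 5.34-fold lower than in the hepatocyte (adjusted p = 0.0229). A dimmer Dsg2 probe did not call the difference from the hepatocyte (-1.54, adjusted p = 0.0783). Dsc2 was at least 16.87-fold higher in iHep than in MEF (adjusted p = 0.00186) and 7.36-fold lower than in the hepatocyte (adjusted p = 0.00667).

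Of the 8 desmosomal plaque proteins 4 were higher in iHep than in MEF and 0 were lower. Desmoplakin (Dsp), which binds keratin filaments, had levels of -5.46, -2.84 and -3.09 in MEF, 1.47, 1.88 and 2.07 in iHep and 2.21 in the hepatocyte. The MEF arrays spread over 2.61 units, yet all iHep types lay above them and just below the hepatocyte. Dsp was 64.86-fold higher in iHep (6.02 ± 0.76, adjusted p = 0.00734), and 1 of its 4 probes, well above background in type 3 and the hepatocyte alone, was called lower in iHep than in the hepatocyte (-1.32, adjusted p = 0.0440). Plakophilin 1 (Pkp1), known from stratified epithelia such as skin, had levels of -7.02, -6.36 and -6.60 in MEF, 0.84, 1.31 and 1.38 in iHep and -7.24 in the hepatocyte. It was well above background on 1 MEF array and not in the hepatocyte, and was 160.1-fold higher in iHep than in MEF with the other MEF arrays at the lowest level above background (fitted difference 7.92 ± 0.28, adjusted p = 0.000494) and at least 125.1-fold higher than in the hepatocyte (adjusted p = 0.000215).

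The plakins periplakin (Ppl) and envoplakin (Evpl), which link desmosomes to the cell cortex and the cornified envelope, were higher in iHep than in MEF by 5.51 ± 0.73 (adjusted p = 0.00839) and by 3.26 ± 0.66 (adjusted p = 0.0268). Ppl had levels of -3.76, -4.38 and -4.48 in MEF, 1.91, 2.26 and 0.06 in iHep and 0.23 in the hepatocyte. Evpl had levels of -2.37, -2.37 and -2.40 in MEF, 1.38, 1.65 and -0.39 in iHep and -2.46 in the hepatocyte. In both genes type 3 was lowest of the iHep types, and the hepatocyte lay within the iHep range for Ppl and next to MEF for Evpl. Ppl was 20.14-fold higher in the hepatocyte than in MEF (adjusted p = 0.0171, and 0.0528 and 0.0708 without either MEF sample). Evpl was 10.13-fold higher in iHep than in the hepatocyte (adjusted p = 0.0260, and 0.0580 to 0.0622 without type 1 or without a MEF sample). Of 6 tested markers of stratified epithelium 1, Trp63, was higher in iHep than in MEF and 1, Lor, was lower, and their summed signal ran from 0.943 to 1.47 in iHep and from 1.15 to 1.63 in MEF, in units of the 75th percentile. Their part in the differences of Pkp1, Ppl and Evpl was not tested.

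Plakoglobin (Jup) and the plakophilins Pkp2, Pkp3 and Pkp4 gave no call between iHep and MEF. Jup was at -1.04, -1.02 and -0.57 in iHep, with types 1 and 2 just below its MEF range of -0.88 to 0.50. Pkp3 was above MEF in all types, at -0.43, 0.20 and -2.82 against -3.65 or less (2.98 ± 0.96, adjusted p = 0.0852), and was called with type 3 left out (adjusted p = 0.0093) and with the 3 MEF arrays as separate samples (adjusted p = 0.0273). Pkp4 was higher in the hepatocyte than in MEF (2.41, adjusted p = 0.0452), a call lost with quantile normalization, the deposited table, no filter on dim probes, the mean of all probes, and without MEF 1, MEF 2 and 3 or type 1 (adjusted p = 0.0572 to 0.130). A second Pkp4 probe did not give it (1.92, adjusted p = 0.0821). Pkp2 was at 0.44, 1.83 and 1.83 in MEF, 1.48, 2.25 and 2.66 in iHep and 3.24 in the hepatocyte (iHep against MEF 0.997, 95% interval -0.42 to 2.42).

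Catenins, which link cadherins to actin, gave no call between iHep and MEF. Beta-catenin (Ctnnb1) was at 4.79, 4.60 and 4.58 in MEF, 4.90, 4.95 and 4.75 in iHep and 3.42 in the hepatocyte. MEF and iHep overlapped (0.17, 95% interval -0.30 to 0.65), and the hepatocyte was 2.42-fold below MEF (adjusted p = 0.0107) and 2.73-fold below iHep (adjusted p = 0.00669). Of its 3 probes the dimmest gave no call for the hepatocyte against MEF (0.43) and 1.14 for iHep against MEF (adjusted p = 0.0250). It also gave no call for iHep against the hepatocyte (0.71, adjusted p = 0.101). Ctnnd1 (p120 catenin) gave no call at its brightest probe (0.05 in iHep against MEF), while 1 of its 3 probes, below background in MEF, was called higher in iHep (adjusted p = 0.0452) and in the hepatocyte (adjusted p = 0.00941), with levels of -6.96, -5.67 and -5.39 in iHep, the first not above background, and -4.19 in the hepatocyte.

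The connexins took 3 different courses. Gja1 (Cx43; probe at chr10:56078423-56078482, mm8) had levels of 1.0982, 0.75 and 0.70 in MEF, -1.85, -1.58 and -3.15 in iHep and -6.27 in the hepatocyte. The groups did not overlap, and iHep lay between the others. Gja1 fell by 3.11 ± 0.52 on the log2 scale in iHep against MEF (8.62-fold, adjusted p = 0.0159) and was at least 104.4-fold lower in the hepatocyte than in MEF and at least 12.12-fold lower than in iHep. Gjb1 (Cx32; chrX:97587217-97587276, mm8) ran the other way, at -4.43, -4.27 and -4.40 in MEF, -1.40, -1.90 and -0.22 in iHep and 3.64 in the hepatocyte. It was 9.26-fold higher in iHep than in MEF (adjusted p = 0.0150) and 28.05-fold lower than in the hepatocyte (adjusted p = 0.00429).

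Gjb2 (Cx26) had levels of 1.20, -1.12 and -1.16 in MEF, -3.79, -0.49 and -5.37 in iHep and 6.12 in the hepatocyte. Type 2 lay within the MEF range, types 1 and 3 lay below it, and the hepatocyte was far above all. It was 645.5-fold lower in iHep than in the hepatocyte (-9.33 ± 2.02, adjusted p = 0.0167). The brightest probe was not called for iHep against MEF (-3.24, adjusted p = 0.206) or for hepatocyte against MEF (6.09, adjusted p = 0.0632, and 0.0167 after normexp). The second probe was well above background on the hepatocyte array alone, at a level of 0.70. Tested on its own (limma), it was called higher in the hepatocyte than in MEF (7.01, adjusted p = 0.000629). It was also called lower in iHep than in MEF (-1.685, adjusted p = 0.0359), where neither group was above background.

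**Figure D4:**
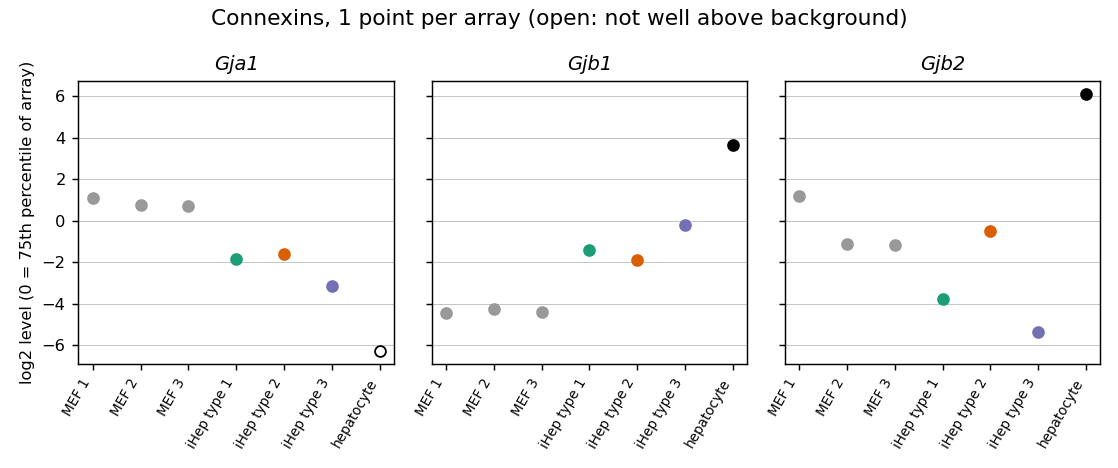
Levels of the connexins Gja1, Gjb1 and Gjb2 on the 7 arrays, as log2 signal relative to the 75th percentile of the array, with MEF in grey, iHep types in colour, the hepatocyte in black and open circles for signals not well above background. Gja1 steps down from MEF (0.70 to 1.0982) to iHep (-3.15 to -1.58) and the hepatocyte (-6.27), Gjb1 steps up, and Gjb2 spreads from -5.37 to -0.49 over the iHep types below a hepatocyte level of 6.12.

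Fibroblast markers moved with the fall of Gja1. Of 10 such markers 10 were well above background on every MEF array, 9 or 10 in iHep and 7 in the hepatocyte, and 9 were called lower in iHep than in MEF (all but Dcn). Their summed signal ran from 771.2 to 836.6 in MEF and from 50.29 to 153.8 in iHep, and was 11.5 in the hepatocyte. Their part in the result was not tested. Of 9 macrophage markers 5 were also lower in iHep than in MEF, with Adgre1, C1qa and Ptprc at background in all iHep types and a summed signal of 3.11 to 5.12 in MEF against 0.298 to 0.504 in iHep.

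In the hepatocyte 18 of the 36 tested members were higher than in MEF and 2, Ctnnb1 and Gja1, were lower. Of all genes 29.3% were called higher and 24.3% lower in that comparison, and the median difference was 2.42 for the members and 0.197 for all genes. This comparison shares the MEF samples with the first one. It also shares the filter, so that its count and median describe the members without being a test of them. The 21 members well above background on all 7 arrays gave 9 calls higher and 1 lower in the hepatocyte than in MEF. The hepatocyte array also carried markers of other liver cells. All 9 endothelial markers were well above background on it, with a summed signal of 7.61 against 0.872 to 1.49 in MEF and 0.229 to 2.18 in iHep. Of 9 macrophage and Kupffer cell markers 3 were higher than in MEF (Clec4f, Marco and Vsig4), 1 was lower and 5 were not called. The summed signal of these 9 was 6.86 in the hepatocyte against 3.11 to 5.12 in MEF. The part of either marker set in the members' differences was not tested.

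Between iHep and the hepatocyte 10 members were higher in iHep and 7 were lower. Of all genes 21.5% were called higher and 28.3% lower, so the share of members called lower was below and that called higher a little above these. Some members entered the test only through a group where they are high. These counts therefore describe the members and are no test of them. The 21 members well above background on all 7 arrays gave 4 calls higher and 5 lower in iHep than in the hepatocyte. The median difference of the members was -0.30 and that of all genes -0.23. Higher in iHep were Cldn4, Cldn10, Cldn23, Marveld3, F11r, Tjp1, Pkp1, Evpl, Ctnnb1 and Gja1. Lower in iHep were Cldn1, Cldn12, Cldn14, Dsg2, Dsc2, Gjb1 and Gjb2. Under quantile normalization the median of all genes moved from 0.197 to -0.002 for hepatocyte against MEF and from -0.226 to 0.024 for iHep against hepatocyte, and the calls over all genes changed from 5602 higher and 4654 lower to 4946 and 5329 in the former and from 4107 and 5423 to 4920 and 4432 in the latter. The members then gave 17 higher and 2 lower, and 11 higher and 7 lower.

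Bile duct and intestinal markers were also compared between iHep and the hepatocyte. Of 6 tested bile duct markers 5 were higher in iHep, among them Krt7, Krt19, Epcam and Sox9, and 1 was lower. The summed signal of the bile duct markers was 170.9 to 209.4 in iHep, 4.82 in the hepatocyte and 233.6 to 294.4 in MEF. Of 7 tested intestinal markers 4 were higher in iHep than in the hepatocyte, 2 were lower and 1 was not called. The summed signal of the intestinal markers was 142.7 to 568.7 in iHep, 31.89 in the hepatocyte and 0.625 to 1.75 in MEF. The defining intestinal factor Cdx2 had a mean level of 2.96 in iHep and was not above background in the hepatocyte, and Cdx1 and Muc2 were not above background in any iHep type. Their part in the members' differences was not tested.

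The iHep types differed from each other in some members, which was not tested because each type has 1 array. Of the 34 members well above background in all 3 types 6 spanned more than 2 log2 units (17.6%), as did 5.97% of the 15829 such genes on the array, and the median span was 1.17 for the members and 0.496 for all genes. The widest spans were those of Gjb2, Tjp3, Pkp3, Cldn7, Ppl and Evpl. Tjp3 was highest in type 3, Cldn7, Ppl, Evpl, Pkp3 and Gjb2 were highest in type 2, and Ppl, Evpl, Pkp3, Cldn7 and Gjb2 were lowest in type 3. Over the 34 members type 2 was highest in 17, type 3 in 14 and type 1 in 3, and type 1 was lowest in 18. The types were not ranked in this way over all genes, so these counts do not set the members apart from other genes.

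**Figure D5:**
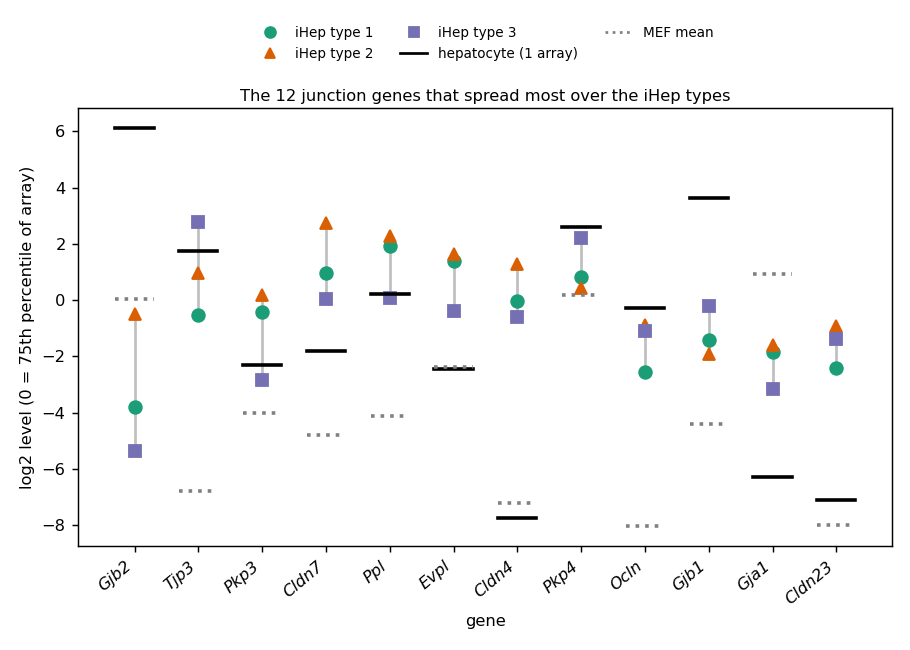
Levels of the 12 junction genes with the widest span over the iHep types, among those well above background in all types, as log2 signal relative to the 75th percentile of the array; symbols are iHep types, the solid bar is the hepatocyte array and the dotted bar the MEF mean. Within a gene the types of Gjb2 lie from -5.37 to -0.49 and those of Tjp3 from -0.54 to 2.77, while in Cldn4 and Cldn23 all types stay far above both other groups.

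Other genes of the same junctions, from lists chosen with earlier results of these data known, did not move as one. Values without a fold are log2 differences. For this and the following lists, the shares over all genes were 10.0% higher and 13.2% lower in iHep against MEF. In hepatocyte against MEF these shares were 29.3% and 24.3%. No list was tested as a set. Of 35 further tight junction and polarity genes 7 were higher in iHep than in MEF and 8 were lower, with a median of -0.22. Higher were the angulins Lsr (8.25, adjusted p = 0.000585) and Ildr1 (at least 28.66-fold), which recruit tricellulin to cell corners, and the adhesion receptor Cxadr (4.32). Lower were Crb2 (at least 4.89-fold), the adhesion protein Jam2 (-2.92) and the angiomotin relative Amotl1 (-2.56). In the hepatocyte 11 were higher than in MEF, among them Lsr (8.84), Cldn5 (at least 85.51-fold), a claudin of endothelium that is also among the endothelial markers above, and Cxadr (6.19), and 11 were lower, among them Jam3 (-7.45), Magi2 (at least 33.24-fold) and Pard6g (-5.41).

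Of 6 further desmosome genes tested, the keratins Krt8 (10.31) and Krt18 (5.71), the filaments that desmosomes hold in simple epithelia, were higher in iHep and the muscle filament desmin (Des, -5.30) was lower. Krt8 (8.91) and Krt18 (6.10) were also higher in the hepatocyte than in MEF, as was the desmoglein Dsg1c (at least 31.49-fold). Among further gap junction genes Gjd4 (at least 1.41-fold) was higher in iHep than in MEF and Gjc1 (-1.71) was lower. In the hepatocyte Gjc1 (-6.86) and the pannexin Panx1 (-5.79) were lower than in MEF, and Gja4 (3.77) and Gja5 (2.53), connexins of blood vessels, were higher.

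Adherens junction genes were mostly lower or not called in iHep: 2 of 17 were higher and 6 lower, with a median of -1.05. E-cadherin (Cdh1), the main cadherin of epithelia, was at background in MEF and at 4.53, 4.50 and 5.12 in iHep and 2.87 in the hepatocyte. It was at least 2141-fold higher in iHep than in MEF (12.85 ± 0.28, adjusted p = 0.000305). The other one higher was Cdh17 (2.52), a cadherin of the intestine, and the lower ones included Ctnna2 (at least 47.64-fold) and Ctnnd2 (at least 10.75-fold), both known from neurons, and P-cadherin (Cdh3, -3.33). In the hepatocyte 4 were higher and 5 lower than in MEF, near the 29.3% and 24.3% of all genes. Among the higher ones were Cdh1 (at least 595.9-fold), the endothelial Cdh5 (at least 80.38-fold) and Nectin4 (1.97). The lower ones included Cdh3 (at least 32.74-fold), Ctnna2 (at least 37.45-fold) and Vcl (-3.45).

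Of 21 tested regulators of epithelial state 10 were higher in iHep than in MEF and 3 were lower. The higher ones included Cdx2 (at least 631.6-fold), Elf3 (at least 143.9-fold) and Grhl1 (at least 118.1-fold), a grainyhead-like factor known to act on junction genes. The lower ones were all repressors of epithelial genes or mesenchymal factors: Twist2 (-2.82), Snai2 (-2.30) and Zeb1 (-2.16). Snai2 was at 3.71, 4.17 and 4.19 in MEF, 1.69, 2.05 and 1.19 in iHep and 0.997 in the hepatocyte, so that it stayed well above background in all groups. In the hepatocyte Hnf4a (at least 1866-fold), Foxa3 (at least 305.9-fold) and the splicing factor Esrp2 (6.00) were among 7 higher regulators, and Twist2 (at least 305.2-fold), Twist1 (at least 231.5-fold) and Prrx1 (-7.98) were among 9 lower ones. The Hnf4a probe was at -0.64, -2.67 and 1.48 in iHep. The median of the claudins in iHep against MEF was 6.04, or 4.77 with genes at background set to their bound, and that of all 36 members was 3.19 either way.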

How the data were processed

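Signals are intensity values on a linear scale that Agilent Feature Extraction 9.5.1.1 made, per the file headers, by subtracting background and removing spatial trends. The authors deposited them without scaling between arrays, together with flags of a unit other than a measurement (well above background, saturated, outlier) and a table of normalized intensity values with equal medians, used as an alternative. Spots with an outlier flag were left out, repeated spots were averaged and levels were scaled to the 75th percentile. Differences between groups, with 3 groups in 1 model of 19135 genes, come from lmFit and eBayes of limma 3.58.1 (R 4.3.3, Benjamini-Hochberg, adjusted p under 0.05). The fit was tried on simulated levels with known changes in iHep, for iHep against MEF alone. Comparisons with the single hepatocyte array were not simulated. Errors of differences are standard errors.

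For an "at least" fold, each array of the dimmer group took the lowest level well above background, or the probe's own if higher, and their mean was set against the mean of the brighter group. It was used where no array of the dimmer group was well above background. Probe positions are those of the scanner files, build mm8, whose exon annotation was not used here. The numbers of arrays limit the precision. All members are named, and of each list of other genes up to 3 per direction with the largest fitted difference in iHep, and up to 3 in the hepatocyte, against MEF. The members and lists were chosen with earlier results of these data known. Protein sequences were not used here. Some results on the list of further gap junction genes are not reported here.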

Additional observations from a re-analysis of the deposited data

How the results depend on the processing

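Calls of members moved with the number of samples, while the filter on dim probes mainly set which members were tested. The filter of well above background on 5 of 7 arrays left 25 members to test, and all 75 of their results kept their call. A filter leaves each log2 difference as it was, so directions could not change. Of these 25, 12 were higher in iHep than in MEF, 11 were higher in the hepatocyte than in MEF and 6 were higher in iHep than in the hepatocyte. Of all 16247 genes that passed this filter, 1680, 4074 and 4044 were higher in the same comparisons. With no filter on dim probes 106 of 108 results stayed the same. The other 2 lost their call, Pkp4 in hepatocyte against MEF and F11r in iHep against hepatocyte. With slide as a block 0 members were lower in iHep than in MEF, since Gja1 missed the threshold. Leaving out 1 sample at a time gave 15 to 22 members higher and 0 to 1 lower in iHep against MEF, with 0 without MEF 1 and without MEF 2 and 3. The other leave-one-out ranges were 15 to 21 higher and 2 to 2 lower in hepatocyte against MEF, and 7 to 12 higher and 6 to 8 lower in iHep against hepatocyte. Over all genes, iHep against MEF gave 1920 higher and 2528 lower, 3161 and 4151 with 3 separate MEF samples, 742 and 912 with slide as a block or without MEF 2 and 3, 678 and 953 without MEF 1, and 1217 and 1650 without type 1. Deviations of same-numbered MEF and iHep arrays from their group means had correlations of 0.029, -0.015 and -0.001. As MEF 2 and MEF 3 were nearly alike and each iHep array is another type, these cannot show whether the samples were paired. The replicate block, fitted with 3 separate MEF samples, gave 22 members higher and 1 lower, and 2374 and 3081 of all genes, and changed no member's call but that of Pkp3 (adjusted p = 0.0387).

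No called member changed sign under any alternative, and 19 uncalled differences did under at least 1 of them. In iHep against MEF these were Cldn14 (0.008 in the report) at -0.0399 and Ctnnd1 at -0.1672 with 3 MEF samples, with and without the replicate block, Cldn14 at -0.0597 and Ctnnd1 at -0.0050 after normexp, Jup at 0.0071 with the slide block and Pard3 at 0.0891 with the mean of all probes. In hepatocyte against MEF Ctnnd1 was at -0.0360 with 3 MEF samples, and after normexp Pkp1 was at 0.4439, Cldn15 at 0.0891, Evpl at 0.0134, Cldn4 at 0.3335 and Cldn11 at 0.1997. Cldn10 was at -0.0577 with quantile normalization and at -0.0559 with the deposited table, and the mean of all probes put Evpl at 0.1267 and Pard3 at 1.7378, the latter called. In iHep against hepatocyte Cldn3 was at 0.0999 and Cldn11 at 0.1212 with quantile normalization, 0.0977 and 0.1203 with the deposited table, and Pard3 was at -1.6488, called, with the mean of all probes. With 1 array left out, or MEF 2 and 3 together, the ranges for iHep against MEF were -0.1356 to 0.0694 (0.1516 without MEF 2 and 3) for Cldn14, -0.6083 to 0.0907 (0.7151) for Ctnnd1, -0.9763 to 0.0547 (-1.6364) for Cldn11 and -1.3299 to 0.0071 for Jup. For hepatocyte against MEF they were -0.4771 to 0.1846 (0.8463) for Ctnnd1, -0.4614 to 0.3841 (-1.3069) for Cldn11, -0.9618 to 0.2996 for Cldn15, -1.2932 to 0.2201 for Cldn4 and -0.8821 to 0.4549 for Jup. For iHep against hepatocyte they were -1.5285 to 0.1265 for Tjp3, -0.5636 to 0.1185 for Pard6b and -0.2573 to 0.4131 for Pard3. The cause was not tested. The test of each probe on its own was chosen after seeing the data and gave 1979 higher and 2602 lower genes in iHep against MEF. Signals near background limit Cldn6, Cldn8, Cldn18 and Marveld2.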
